A study of Saccharomyces cerevisiae with 64 samples.

Results

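Peaks of the yeast Set1 complex subunits Spp1 and Bre2 that lay between convergent genes are described here across strains, media and times of meiosis. A convergent interval is the gap between neighbouring protein-coding regions whose left gene runs on the plus strand and whose right gene runs on the minus strand, so that both genes end at the gap. A peak belonged to such an interval when its midpoint lay inside it. By this rule 530 of 53443 nuclear peaks (0.992%) in 62 peak lists were convergent, and they occupied 102 of 1513 convergent intervals (6.74%). No measured height or score entered the rule.

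Set1C methylates lysine 4 of histone H3 (H3K4), and Spp1 is the subunit whose PHD finger binds the methylated tail. In meiotic yeast cells Spp1 also contacts Mer2, a protein of the chromosome axis, and so links marked gene starts, near which Spo11 breaks the DNA, to the axis. Cohesin and axis proteins are known to collect between convergent genes in budding yeast, and gene ends carry little H3K4 trimethylation.

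All strains were SK1 diploids (leu2/LEU2, HIS4/his4, trp1, ura3), fixed after growth in pre-sporulation medium (SPS) or after transfer to sporulation medium (SPM). Myc-tagged Spp1 without its PHD finger (spp1PHDΔ), myc-tagged Spp1 without its CXXC domain (spp1CXXCΔ), Bre2-myc and full-length Spp1-myc gave 1 library per strain in SPS, and 1 per strain at each of 0, 2, 4 and 6 h of SPM. H3K4R, H3R2A and H3 wild-type cells, each with Spp1-HA, gave 2 libraries at each of the same SPM times. The genotypes of these 3 strains list lys2, ho::LYS2 and deletions of both chromosomal H3 genes (hht1Δ, hht2Δ), so that H3 came from HHT2, next to HHF2 and TRP1, on a centromeric plasmid, in the wild-type strain too. In the competition series, diploids with a myc-tagged SPP1 allele and a GFP-tagged allele under the copper-responsive CUP1 promoter gave 8 Spp1-GFP libraries (4.5 to 6.5 h) and 10 Spp1-myc libraries (4.5 to 6.5 h). The labels call the Spp1 of the H3 strains myc in the descriptions but HA in genotype and antibody, give the competition Spp1-myc samples a genotype homozygous for the myc tag, and give SPS samples the time 0 h. The labels do not tie replicates to separate cultures, so the p-values below reflect the spread among these samples, which may be technical.

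Nuclear peaks per list numbered 40 to 2075, fewest in the competition series, where Spp1-myc lists held 40 to 110. The lists give no read counts, so sequencing depth is unknown. An input and an untagged sample were not analysed here. All 62 lists differed from each other.

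Taken over all times and media, peaks were sparse between convergent genes. Convergent intervals make up 4.33% of the span from the first to the last coding region of the 16 chromosomes and held 0.992% of peaks. Tandem intervals, between genes that run the same way, make up 13.7% of the span and held 4.75% of peaks, and divergent intervals, where both genes start, make up 8.85% and held 5.16%. Coding regions held 88.8% of midpoints. Averaged over the 9 series (strain and epitope), there were 1.79 ± 0.881 peaks per 100 kb per library in convergent intervals, against 4.71 ± 2.50 in divergent intervals (SD, n = 9 series; exact sign-flip test over series, two-sided, p = 0.00781, 0.0156 adjusted over 2 tests). Convergent density was the lower of the pair in 8 of 9 series. All series but Bre2-myc carry a form of Spp1, and all were counted over the same intervals. The p-values over series therefore describe agreement among related series, which may not be independent. Tandem intervals held 2.90 ± 1.83 peaks per 100 kb (SD, n = 9 series), a difference of -1.11 (exact p = 0.0352, adjusted 0.0352), with convergent density the lower in 6 of 9 series. The SPS libraries carried most of the difference from tandem intervals: without them it was -0.23 (exact sign-flip test, adjusted p = 0.258), a comparison chosen after the values were seen. The call against tandem intervals was also lost without the Spp1-myc SPS library (exact test, adjusted p = 0.0977) and without either H3K4R library at 6 h (exact test, adjusted p = 0.0547 and 0.0625).

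**Figure D1:**
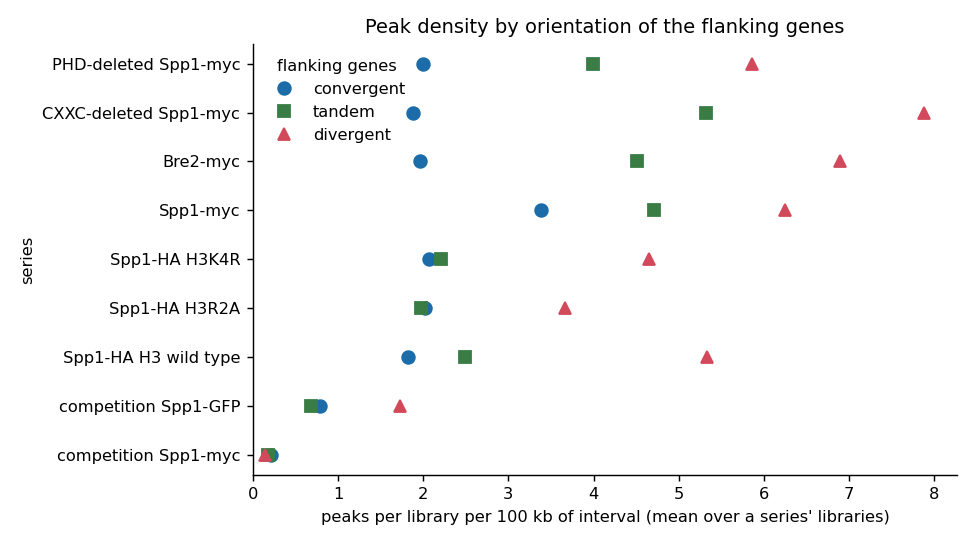
Peaks per library per 100 kb of convergent, tandem and divergent interval (x axis), as the mean over the libraries of each series (y axis). Divergent density is the highest of the 3 in every series but competition Spp1-myc, and convergent and tandem density lie close together in H3K4R, H3R2A and both competition series.

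Convergent density differed less between the media than tandem and divergent density did. At 0 h in SPM the 4 myc strains had 2.11 to 3.26 peaks per 100 kb in convergent, 1.51 to 2.36 in tandem and 1.97 to 2.82 in divergent intervals. The means at 0 h were 2.73, 1.95 and 2.28. Of these 3 means the convergent one was thus the highest, unlike in the average over times and media. Full-length Spp1-myc alone had 2.11 in convergent and 2.12 in tandem intervals. In the H3 strains at 0 h convergent density was the highest in both H3K4R libraries and H3R2A replicate 1. Divergent density was the highest in both H3 wild-type libraries (3.66 and 2.72, against 3.45 and 2.30 convergent) and in H3R2A replicate 2 (3.47, against 3.45). In SPS the 4 myc strains had 2.30 to 3.45 in convergent intervals, 11.7 to 14.3 in tandem intervals and 15.3 to 21.9 in divergent intervals. The convergent density thus covered overlapping ranges in both media while the others did not overlap. Each myc strain had 1 library in SPS and 1 at 0 h, so this was not tested.

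Convergent intervals with a noncoding gene were occupied more often than the others and held most convergent peaks, though most occupied intervals had no such gene. Of the 1513 intervals, 67 (4.43%) hold an annotated noncoding gene, and 26 of these 67 (38.8%) held a peak in some library, against 76 of 1446 intervals without one (5.26%). The 67 intervals hold 18.6% of convergent base pairs and 291 of the 530 peaks (54.9%). In 229 of those 291 peaks the midpoint lay inside the noncoding gene itself (78.7%), and in 287 it lay within 250 bp of it. Pooled over libraries, density was 4.84 peaks per 100 kb per library in convergent intervals with a noncoding gene and 0.909 in those without. In divergent intervals the same values were 4.09 with and 4.19 without, and in tandem intervals 3.17 with and 2.32 without. The split was made after the data were seen and is given as a description.

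Occupancy differed with the kind of RNA gene. All 3 convergent intervals with a gene for a spliceosomal RNA (snRNA) held peaks, as did 13 of 14 with a small nucleolar RNA (snoRNA) gene (92.9%). For transfer RNA (tRNA) genes it was 9 of 45 (20.0%). In tandem intervals 23 of 28 snoRNA intervals (82.1%) and 34 of 126 tRNA intervals (27.0%) held peaks, and in divergent intervals 10 of 13 (76.9%) and 33 of 86 (38.4%). High occupancy of snoRNA genes was therefore seen in all 3 orientations. The intervals without a noncoding gene ran the other way, with 5.26% occupied among convergent, 15.2% among tandem and 24.1% among divergent intervals. Convergent intervals are also shorter, with a median length of 231 bp, against 401 bp for tandem and 511 bp for divergent ones.

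Peaks in the 2 kinds of convergent interval lay differently. With a noncoding gene, 263 of 291 peaks (90.4%) lay wholly between the flanking coding regions and 7 reached both. Without one, 87 of 239 (36.4%) lay wholly inside and 58 (24.3%) reached into both genes, with a median distance from midpoint to the nearer stop codon of 67 bp. Peak widths were 101 to 2001 bp with a median of 201 bp. Over series, convergent peaks had a mean width of 215 ± 43.4 bp, against 230 ± 42.5 bp for other nuclear peaks (SD of series means of library medians, n = 9, exact sign-flip p = 0.223, adjusted 0.445). The authors' score of a peak, turned into a percentile within its list, averaged 50.1 ± 7.38 for convergent peaks, against 51.7 ± 1.26 for other peaks (SD, n = 9, exact p = 0.531, adjusted 0.531). Neither difference passed the test, and both turned the other way among peaks scoring in the upper 50% of each list. The midpoint rule has a sharp edge: 105 midpoints lay within 50 bp inside a convergent interval and 302 within 50 bp outside one, with a median width of 251 bp in both.

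A few intervals, called again in many libraries, held most of the convergent peaks counted over all lists. The 13 intervals with a peak in 10 or more libraries held 289 of the 530 peaks (54.5%), and 8 of the 13 hold a noncoding gene. At the other end 37 intervals had a peak in 1 library only, and 2 of these hold a noncoding gene.

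The interval between COQ21 and SWC5 (sacCer3 chromosome II:680563-682178) had a peak in 53 of 62 libraries. It holds LSR1, the gene for the U2 spliceosomal RNA, at II:680688-681862, and all 56 of its peaks had their midpoint inside LSR1. All 44 libraries outside the competition series had it, as had 7 of 8 competition Spp1-GFP and 2 of 10 competition Spp1-myc libraries. The median width was 976 bp and the median score percentile within the lists 91.1. SWC5 encodes a subunit of the complex that deposits the histone variant H2A.Z.

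SNR19, the gene for U1 spliceosomal RNA, lies between SSU72, which encodes a transcription termination phosphatase, and POP1, which encodes a protein of RNase P (XIV:229715-231067). It had a peak in 32 libraries. By time in SPM these were 10 of 10 libraries at 0 h, 9 of 10 at 2 h, 7 of 10 at 4 h and 4 at 6 h, where competition libraries are counted too. In SPS 1 of 4 had it. The peaks at the U2 and U1 genes were thus present in every strain at 0 h, and the one at U2 in every library outside the competition series. SNR6, the gene for U6 spliceosomal RNA, between REX3 and YLR108C, differed: its interval had a peak in 2 SPS and 2 competition Spp1-GFP libraries and in 0 of 10 at 0 h.

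RPR1, the RNA of RNase P, between TIM9 and PXP1 (V:117475-118616), ran differently. It had a peak in 4 of 4 SPS libraries, in 0 of 10 at SPM 0 h, and in all 4 myc strains at 4 and 6 h, for 21 libraries in all. In the H3 strains it was rare, with 0 of 8 H3K4R, 1 of 8 H3R2A and 1 of 8 H3 wild-type libraries. The interval between TAR1 and YLR154C-G (XII:455071-462521) spans the ribosomal DNA and had 35 peaks in 34 libraries. In 29 libraries the midpoint lay inside RDN5-1, the 5S rRNA gene (XII:459676-459796). The other 6 peaks were those of the 5 competition Spp1-GFP libraries, and all of them began at 459865 or later, outside that gene. It had a peak in 11 libraries at 6 h and in 2 at 0 h, competition libraries included. Ribosomal DNA is repeated in the genome, and the sources used here do not say how reads from repeats were placed, so these peaks are uncertain.

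Without any noncoding gene, the interval between SPO24 and ERV2 (XVI:646154-646447) was occupied most often, in 28 libraries. ERV2 encodes a thiol oxidase of the endoplasmic reticulum. None of its peaks lay wholly in the 294 bp gap: the median width was 926 bp, so the peaks reached into the coding regions. HOR7 and MLO1 (XIII:774932-775314) and YLR326W and TMA10 (XII:782897-783126) each had 11 libraries, with median widths of 401 and 651 bp against gaps of 383 and 230 bp. At these 3 places the midpoint rule selects peaks, mostly broad, that extend past the gap into coding regions. Whether they also cover the starts of the flanking genes was not measured.

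**Figure D2:**
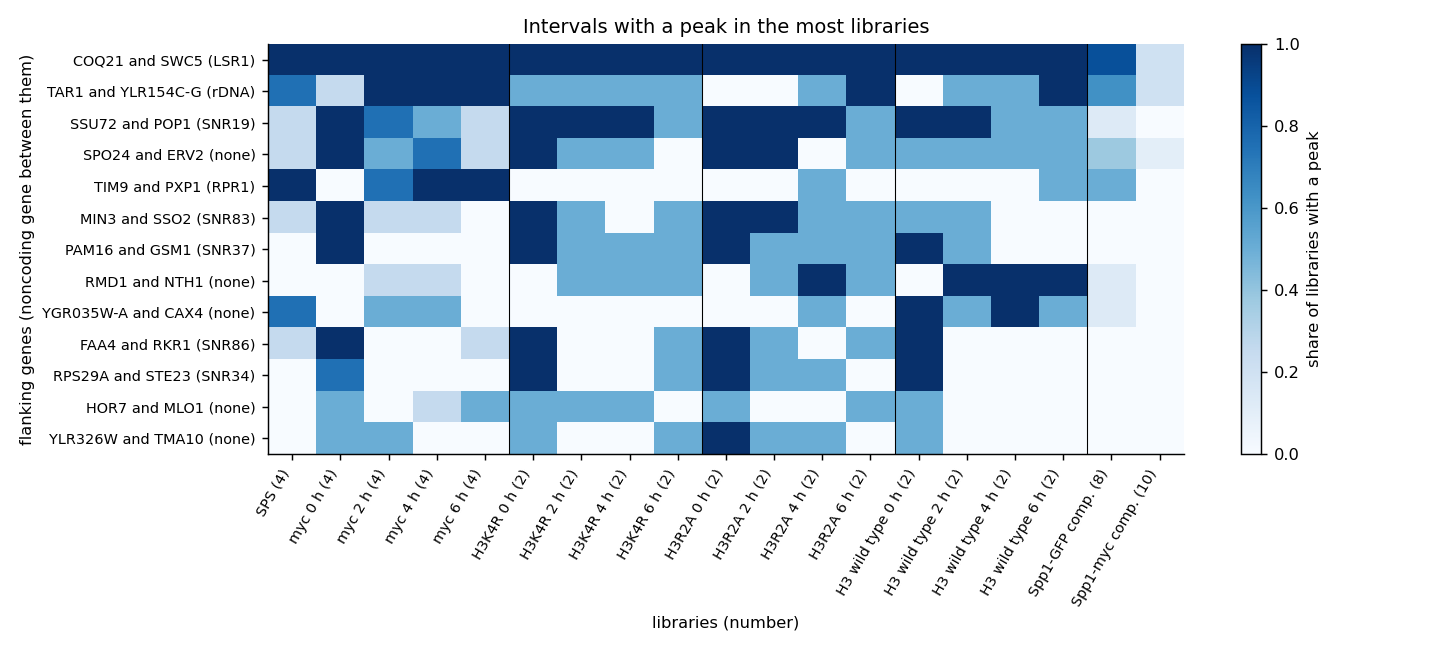
Share of libraries (colour) with a peak in each of the 13 convergent intervals occupied in 10 or more libraries (rows, with the noncoding gene they hold) by strain and time (columns, with the number of libraries). The U2 interval (LSR1) is filled in every column outside the competition series, the snoRNA intervals (SNR83, SNR37, SNR86, SNR34) are darkest at 0 h, and RMD1 and NTH1 is empty at 0 h.

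Time in sporulation medium was the comparison in which named convergent intervals passed the test. With their numbers of libraries, the other comparisons could not have let a single interval pass alone. Over the 3 H3 strains, features (coding regions and intervals of every orientation) were tested one by one by Fisher's exact test on the number of libraries with a peak, 18 at later times against 6 at 0 h. Of 3653 features with a peak in any of these libraries 287 passed an adjusted p of 0.05 (7.86%), 34 of them higher at later times (0.931%) and 253 lower (6.93%). Of the 1513 convergent intervals 50 had a peak in these libraries and were tested, and 7 passed (14%), 1 higher and 6 lower. The median difference was -16.7 percentage points of libraries over the 50 convergent intervals and -11.1 over all features tested.

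All 6 that passed with a lower share of libraries after 0 h hold snoRNA genes, whose RNAs guide the modification of ribosomal RNA. LAM1 and LIN1 (SNR71, VIII:410790-411383) had a peak in 0 of 18 later libraries, against 6 of 6 at 0 h (Fisher's exact test, Benjamini-Hochberg adjusted p = 0.00302). The interval was thus occupied in both replicates of each H3 strain at 0 h and in none after. Its peaks lay beside SNR71 more often than on it, with 1 of 6 midpoints inside the gene. YHR140W and RPL42B (SNR32, VIII:381292-381989) had 0 of 18 later and 5 of 6 libraries at 0 h (exact test, adjusted p = 0.00921). MID2 and RPS25B (XII:791807-795572, with SNR55, SNR57 and SNR61) had the same counts and the same adjusted p. RPL42B and RPS25B encode ribosomal proteins.

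RPS29A, another ribosomal protein gene, and STE23 (SNR34, XII:898822-899576) had 3 of 18 later libraries, against 6 of 6 at 0 h (exact test, adjusted p = 0.0195), and FAA4 and RKR1 (SNR86, XIII:761892-763350) had the same counts. FAA4 encodes an acyl-CoA synthetase and RKR1 a ubiquitin ligase of ribosome quality control. YGL088W and MMS2 (SNR10, VII:346202-346405) had 1 of 18 later and 5 of 6 libraries at 0 h (exact test, adjusted p = 0.0197). When each of the 24 libraries was left out in turn, the first 5 of these intervals passed in 24 of 24 fits and the SNR10 interval in 19. The total of features called was less steady: it was 122, 145, 122, 151 and 143 without H3 wild type replicate 1, H3K4R replicate 1, H3K4R replicate 2, H3R2A replicate 1 and H3R2A replicate 2 at 0 h. Lists at later times were also shorter, with 598 to 2006 nuclear peaks, against 1227 to 2041 at 0 h, and the part of list length in these calls was not tested.

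The myc strains are added here, without a test. Over all libraries 72 of 115 convergent peaks in snoRNA intervals had their midpoint inside the gene. Of the 14 convergent snoRNA intervals, 0 to 3 had a peak in the 4 SPS libraries and 5 to 13 in the 10 libraries at 0 h (median 8.5). Medians were 0.5 at 2 h, 0 at 4 h and 0 at 6 h, with highest values of 4, 4 and 5, and all 18 competition libraries had 0. The lowest library at 0 h (5) was as high as or higher than every library at any other time. Among the 41 snoRNA intervals of the other orientations, the median number occupied was 5 in SPS, 18 at 0 h (9 to 29), 5 at 2 h, 4 at 4 h and 3 at 6 h, so 0 h was the highest in the other orientations too. Among the 4 myc strains, PAM16 and GSM1 (SNR37) and RPS26B and PMD1 (SNR4) had a peak in 4 of 4 libraries at 0 h, against 0 of 4 in SPS.

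**Figure D3:**
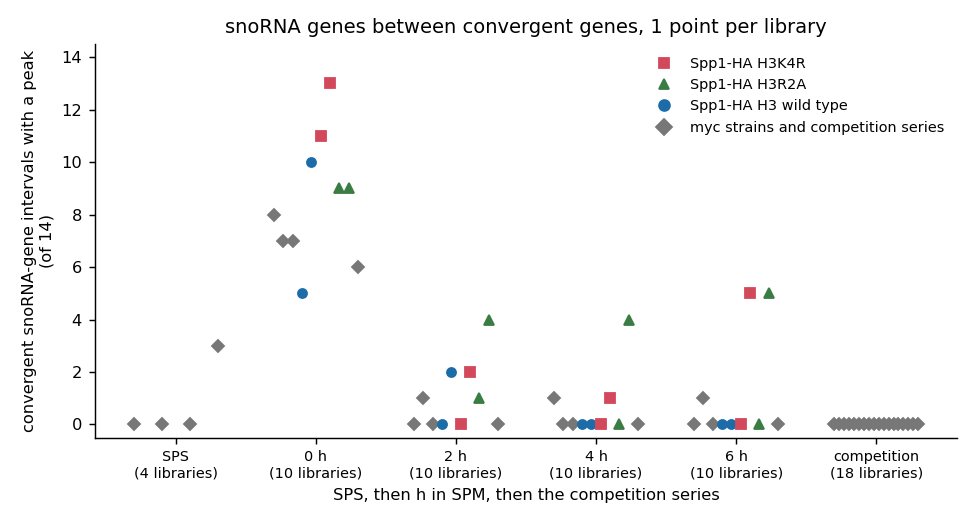
Number of the 14 convergent snoRNA-gene intervals with a peak (y axis), 1 point per library, in SPS, by h in SPM and in the competition series. The 10 libraries at 0 h lie between 5 and 13, and no library of another medium or time exceeds 5.

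The 1 convergent interval that passed the test with more libraries after 0 h spans a centromere. RMD1 (YDL001W) and NTH1 (YDR001C, neutral trehalase) are by their systematic names the first genes on the left and right arms of chromosome IV, so the centromere lies between them (IV:449277-450219). It had a peak in 13 of 18 later libraries, against 0 of 6 at 0 h (exact test, adjusted p = 0.0437). Its peaks were narrow, 101 to 151 bp, and all lay within IV:449750-449956. The call was lost (adjusted p up to 0.0895) in 19 of 24 fits that left out 1 library. By strain it was occupied in 3 of 8 H3K4R, 4 of 8 H3R2A and 6 of 8 H3 wild-type libraries, that is in every wild-type library after 0 h. Of the 16 intervals between the first genes of opposite arms 5 are convergent, and 3 of these held peaks: IV, XIII between YPT7 and CDC5 (4 libraries) and XIV between DOM34 and CIT1 (3 libraries). CDC5 encodes the polo kinase and CIT1 the mitochondrial citrate synthase. None of the 16 had a peak in any of the 10 libraries at SPM 0 h. Of the 11 centromere intervals of other orientation 4 held peaks.

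As a share of nuclear peaks, convergent peaks were 0.806% ± 0.363 at later times (n = 18 libraries), against 1.18% ± 0.329 at 0 h (SD, n = 6; exact permutation within strain, two-sided, p = 0.0369, 0.221 adjusted over 6 comparisons). Later libraries had 0.299 to 1.58% (median 0.737%), and 0 h libraries 0.845 to 1.55% (median 1.14%), so the groups overlapped. The mean share in intervals with a noncoding gene was 0.441% ± 0.288 at later times, against 0.817% ± 0.278 at 0 h (n = 18 and 6, exact permutation p = 0.00588, adjusted 0.0353), a split made after the data were seen. Leaving out 1 library ended this call for 9 of the 24 (H3K4R replicates 1 and 2 at 0 h and replicate 1 at 2 and 4 h, H3R2A replicate 2 at 0 h, and H3 wild type replicate 1 at 0, 2 and 4 h and replicate 2 at 4 h), with adjusted p of 0.0517 to 0.0741 by the exact permutation test. H3R2A replicate 2 showed no such fall, with 0.903% at 0 h and 0.825, 0.924 and 1.22% at 2, 4 and 6 h. In every other same-numbered series the later values lay below 0 h, except H3 wild type replicate 2 at 6 h (0.502%, against 0.493% at 0 h). The share in the other convergent intervals was 0.365% ± 0.259 at later times and 0.363% ± 0.0976 at 0 h (exact permutation p = 0.989, adjusted 0.989). Among peaks scoring in the upper 50% of each list the difference of later times from 0 h in the total convergent share was -1.0 percentage points (exact permutation, adjusted p = 0.00273), and with all lists cut to equal length by score it was -1.08 (exact permutation, adjusted p = 0.00410). With the interval extended by 250 bp on each side, which takes in gene ends, the difference turned to 1.19 (exact permutation, adjusted p = 0.0648).

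**Figure D4:**
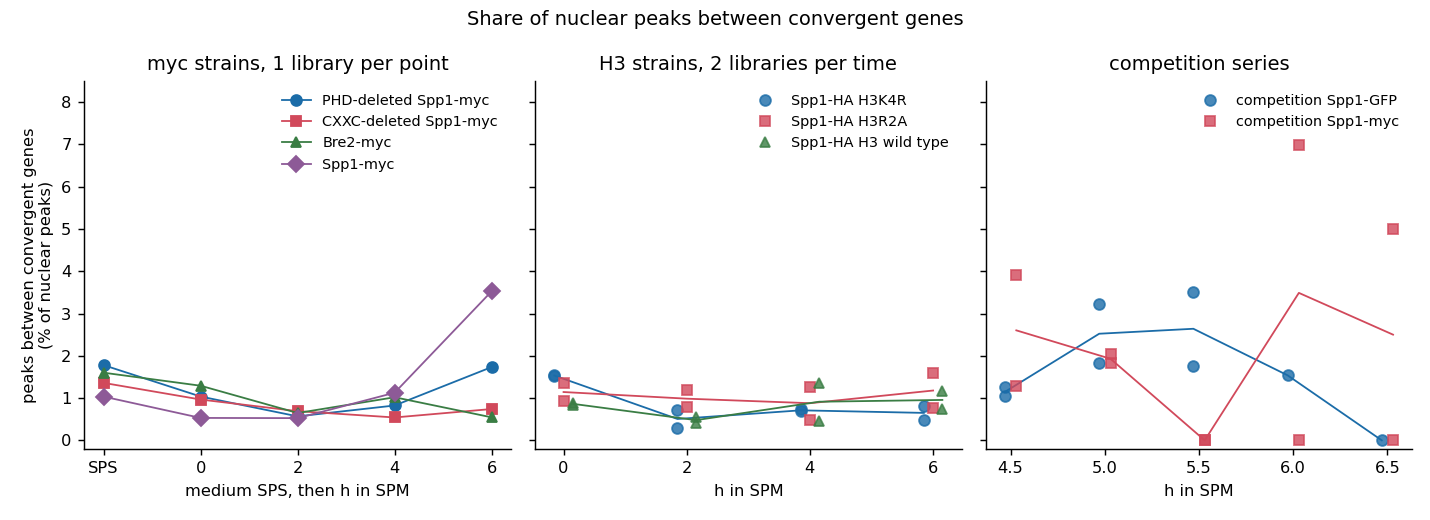
Percent of nuclear peaks with a midpoint between convergent genes (y axis) by medium and time (x axis), 1 point per library, lines through means, in the myc strains (left), H3 strains (middle) and competition series (right). Spp1-myc at 6 h stands at 3.53%, while libraries of the H3 strains stay between 0.299 and 1.58%, and the competition lists, with few peaks, range from 0 to 6.98%.

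Changing histone H3 was not followed by a detectable change in the convergent share. H3K4R cells, whose H3 cannot be methylated at lysine 4, had 0.849% ± 0.451 of nuclear peaks between convergent genes, against 0.803% ± 0.340 in H3 wild-type cells (SD, n = 8 libraries each, exact permutation within time, p = 0.770, adjusted 0.770). Libraries ran from 0.299 to 1.55% (median 0.722%) in H3K4R and from 0.402 to 1.37% (median 0.793%) in wild type. H3R2A cells had 1.05% ± 0.361 (0.487 to 1.58%, median 1.06%; n = 8, exact p = 0.199, adjusted 0.456 against wild type). H3K4R differed from H3R2A by -0.20 percentage points (exact permutation p = 0.304, adjusted 0.456). The 3 ranges overlapped almost fully.

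The change after 0 h was also compared between the H3 strains. In H3K4R the 6 later libraries had 0.299 to 0.807% and the 2 at 0 h 1.55 and 1.52%, so later minus 0 h was -0.91 percentage points, without overlap. In H3R2A it was -0.13 and in H3 wild type -0.08. H3K4R against H3R2A gave a difference of -0.78 (exact permutation of strain labels within time, p = 0.0154, 0.0463 adjusted over 3 pairs). H3K4R against wild type gave -0.83 (exact p = 0.0664, adjusted 0.0995) and H3R2A against wild type -0.05 (exact p = 0.906). This test was chosen after the data were seen, and the call for H3K4R against H3R2A was lost in 14 of 20 fits that left out libraries and under 4 of 6 other settings. By the exact permutation test these 4 gave adjusted p = 0.146 in the upper 50% of scores, 0.259 with any overlap of at least 1 bp, 0.299 without noncoding intervals and 0.0509 without COQ21 and SWC5.

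Split by noncoding genes, the H3 mutants had higher values than wild type in intervals with such a gene and lower values in the others, but no adjusted test passed. The share in intervals with a noncoding gene was 0.564% ± 0.373 in H3K4R and 0.687% ± 0.343 in H3R2A, against 0.355% ± 0.162 in wild type (SD, n = 8 each; exact permutation p = 0.0355 and 0.0231, both 0.0556 adjusted over 6 comparisons). In the other convergent intervals it was 0.285% ± 0.152 in H3K4R and 0.360% ± 0.0986 in H3R2A, against 0.448% ± 0.349 in wild type (n = 8 each, exact permutation p = 0.304 and 0.733). By sum, 56 of 86 convergent peaks in H3K4R and 56 of 84 in H3R2A lay in intervals with a noncoding gene, against 38 of 76 in wild type.

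No single interval passed the test between the H3 strains. Of 3518 features tested between H3K4R and wild type 0 passed (0%), of 3312 between H3R2A and wild type 0 (0%) and of 3053 between H3K4R and H3R2A 0 (0%), by Fisher's exact test after Benjamini-Hochberg adjustment. Even a feature present in 8 of 8 libraries against 0 of 8 could not have passed alone over this many features. The test therefore could not judge a single interval. At an unadjusted p under 0.05 there were 199, 84 and 42 features, of which 1, 1 and 0 were convergent. Without H3 wild type replicate 1 at 0 h 12 features passed between H3K4R and wild type, none of them convergent. The convergent interval under 0.05 in both comparisons was YGR035W-A and CAX4 (VII:557787-558148), with 0 of 8 H3K4R (unadjusted p = 0.00699 by Fisher's exact test, adjusted 0.468) and 1 of 8 H3R2A libraries (unadjusted p = 0.0406, adjusted 1), against 6 of 8 in wild type. CAX4 encodes a phosphatase of dolichol-linked sugar synthesis. This interval also had a peak in 3 of 5 Spp1-myc, 2 of 5 PHD-deleted, 1 of 5 CXXC-deleted and 1 of 5 Bre2-myc libraries. In the competition series 1 of 8 Spp1-GFP libraries had it. In the other direction, DFG16 and HMS1 (XV:388685-389770) had a peak in 3 of 8 H3K4R and 3 of 8 H3R2A libraries, against 0 of 8 in wild type, all after 0 h (Fisher's exact p = 0.2 in both, adjusted 1). These 6 peaks lay in CRS5, a metallothionein gene annotated as a pseudogene in the reference, and no other library of the 62 had them. VMA1 and RPL41A had 3 of 8 H3K4R, against 0 of 8 wild-type libraries, and MIN3 and SSO2 (SNR83) 6 of 8 H3R2A, against 2 of 8.

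Within sporulation medium, 6 h was compared with 2 and 4 h over the H3 strains. The share was 0.928% ± 0.387 at 6 h, against 0.745% ± 0.352 at 2 and 4 h (SD, n = 6 and 12 libraries, exact permutation within strain, p = 0.303, adjusted 0.456). None of 3103 features passed (0%; 66 at an unadjusted p under 0.05, 0 of them convergent). With 6 and 12 libraries a feature could not have passed alone. The largest differences in share of libraries among convergent intervals were at TAR1 and YLR154C-G, with 5 of 6 libraries at 6 h and 5 of 12 before, and at SSU72 and POP1, with 3 of 6 at 6 h and 11 of 12 before.

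Full-length Spp1-myc at 6 h was the list richest in convergent peaks outside the competition series. Over SPS, 0, 2, 4 and 6 h its lists held 18, 11, 6, 14 and 39 convergent peaks. As a share of nuclear peaks these were 1.03%, 0.530%, 0.525%, 1.13% and 3.53%, with Wilson 95% intervals of 0.655 to 1.63%, 0.296 to 0.947%, 0.241 to 1.14%, 0.672 to 1.88% and 2.59 to 4.78%. The 6 h interval lies above the other 4. These intervals cover counting error only, and there was 1 library per time, so time could not be tested.

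PHD-deleted Spp1-myc had the next largest 6 h value of the myc strains, with 13 peaks (1.73%, 1.02 to 2.94%). CXXC-deleted Spp1-myc had 7 (0.741%, 0.359 to 1.52%) and Bre2-myc 4 (0.544%, 0.212 to 1.39%), and both intervals lie below that of Spp1-myc, 2.59 to 4.78%. Spp1-HA in H3 wild-type cells had 0.741 and 1.17% at 6 h, with 10 and 7 peaks. Those lists of intact Spp1, with another tag and a plasmid-borne H3, thus stood below Spp1-myc.

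**Figure D5:**
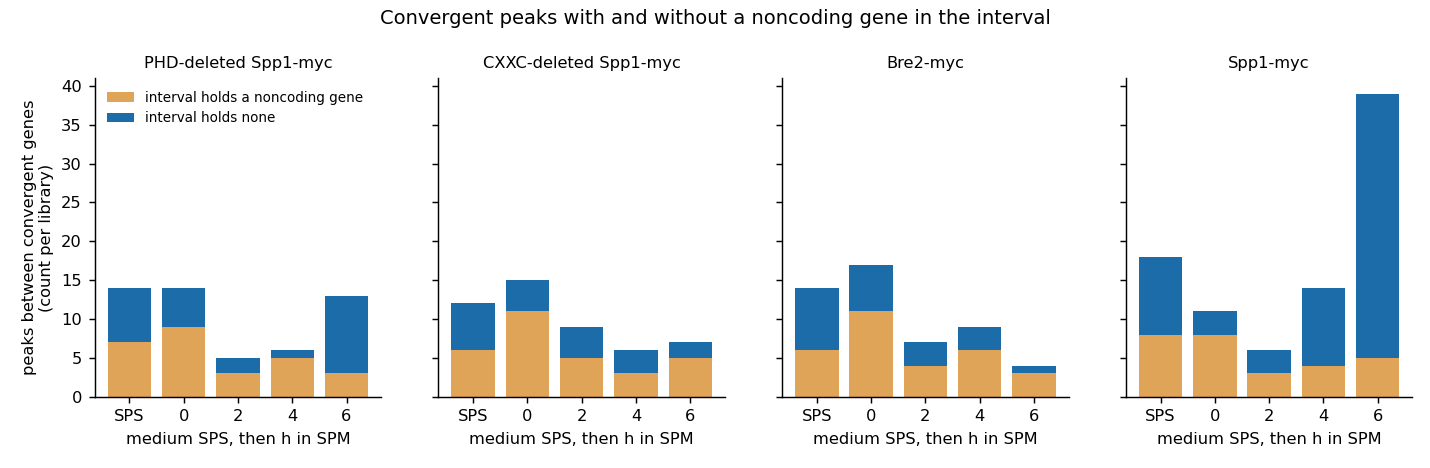
Convergent peaks per library (y axis) of the 4 myc strains by medium and time (x axis), split by whether the interval holds a noncoding gene. Intervals without one account for 10 of 13 peaks in PHD-deleted and 34 of 39 in full-length Spp1-myc at 6 h, and for 5 of 14 in PHD-deleted and 3 of 11 in full-length Spp1-myc at 0 h.

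Of the 39 peaks in Spp1-myc at 6 h, 34 lay in intervals without a noncoding gene, in 33 different intervals. For 22 of these peaks the interval was occupied in no other list. Any peak of another list, whatever its class, overlapped 16 of the 34 by at least 1 bp (47.1%), against 851 of the other 1067 nuclear peaks of that list (79.8%). PHD-deleted Spp1-myc at 6 h overlapped 14 (41.2%), Spp1-myc at 4 h 9 (26.5%), H3 wild type at 6 h 7 and 4 (20.6 and 11.8%), CXXC-deleted Spp1-myc at 6 h 5 (14.7%) and Bre2-myc at 6 h 2 (5.88%). For the other 1067 peaks the values were 50.8% in PHD-deleted Spp1-myc, 56.0% in Spp1-myc at 4 h, 42.8 and 10.97% in the H3 wild-type lists, 43.1% in CXXC-deleted Spp1-myc and 42.2% in Bre2-myc at 6 h. The median width of the 34 was 176 bp, against 201 bp for the other peaks, and 6 of them reached both flanking genes.

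Among intervals occupied at 6 h and empty at 0 h, 4 tied at the highest score percentile, 94.8. These were GID7 and ATG22 (III, peak of 1051 bp), RAD18 and SED4 (III, 2001 bp), MET10 and SMC2 (VI, 951 bp) and EAP1 and TOR2 (XI, 1001 bp). RAD18 encodes a ubiquitin ligase of post-replication repair and ATG22 a vacuolar amino acid exporter. Next came IOC3 and CMK1 (VI, 801 bp), ARO80 and SIP1 (IV, 551 bp), HYM1 and PXA2 (XI, 401 bp) and BIR1 and GRR1 (X, 601 bp). Of these 8, GID7 and ATG22, RAD18 and SED4, and IOC3 and CMK1 were occupied in no other list and 5 in 1 other. For all 5 that list was PHD-deleted Spp1-myc at 6 h. SMC2 encodes a condensin subunit, TOR2 a growth-controlling kinase, BIR1 a subunit of the chromosomal passenger complex and MET10 a sulfite reductase subunit. Only COQ21 and SWC5 had a Spp1-myc peak at all 4 times in SPM. At 0 h and no later time in SPM, Spp1-myc occupied EAF5 and PMP2 and 6 snoRNA intervals. Of these 7, EAF5 and PMP2, FAA4 and RKR1, and MIN3 and SSO2 also had a Spp1-myc peak in SPS.

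Convergent sites were compared between 0 h in SPM and SPS. The 4 myc strains together occupied 23 intervals at 0 h, 14 of them with a noncoding gene, against 27 in SPS, 11 of them with one, and 9 were in both (39.1% of those at 0 h, 33.3% of those in SPS). For tandem intervals the intervals in both were 64.8% of those at 0 h and 11.9% of those in SPS, and for divergent intervals 55.3% and 8.57%. For coding regions they were 51.3% and 82.9%. The share of 0 h sites also found in SPS was thus lowest for convergent intervals, without a test, and their share of SPS sites lay between those of the other classes. Sites in SPS numbered 27 of 1513 convergent, 295 of 2828 tandem and 245 of 1527 divergent intervals, and 1326 coding regions. The share of 0 h sites found again rises with the number occupied in SPS. The classes therefore cannot be ranked by it. Sites in 4 of 4 strains at 0 h and 1 of 4 in SPS were EAF5 and PMP2, FAA4 and RKR1, MIN3 and SSO2, SPO24 and ERV2, and SSU72 and POP1. EAF5 encodes a subunit of the NuA4 histone acetyltransferase. Sites in 3 or 4 of the 4 strains in SPS and in none at 0 h included TIM9 and PXP1 (RPR1), AHA1 and YDR215C, CHS5 and JIP3, MGA1 and RIE1, YGR035W-A and CAX4 and 3 tRNA intervals (COQ8 and YGL118C, CUS2 and YNL284C-B, ZEO1 and INO4). AHA1 encodes an Hsp90 co-chaperone and INO4 an activator of phospholipid synthesis genes.

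In the competition series, Spp1-GFP and Spp1-myc were compared at 4.5, 5 and 5.5 h. Convergent peaks were 2.10% ± 1.03 of Spp1-GFP and 1.51% ± 1.47 of Spp1-myc nuclear peaks (SD, n = 6 libraries each, exact permutation within time, p = 0.417, adjusted 0.500). Spp1-GFP libraries ran from 1.04 to 3.51% (median 1.79%) and Spp1-myc libraries from 0 to 3.92% (median 1.55%). A list of 61 peaks with 0 convergent ones, such as Spp1-myc replicate 2 at 5.5 h, allows a share of up to 4.92%, so small shares were not detectable at this list length. None of 865 features passed (0%; 28 at an unadjusted p under 0.05, 0 of them convergent). With 6 libraries each a feature could not have passed alone. Spp1-GFP had the U2 interval in 6 of 6 libraries, against 2 of 6 for Spp1-myc (Fisher's exact p = 0.0606, adjusted 0.794), and the ribosomal DNA interval, outside the 5S gene, in 4 of 6, against 0 of 6 (Fisher's exact p = 0.0606, adjusted 0.794). The 2 competition Spp1-myc libraries with a peak in this interval, at 6 and 6.5 h, had it in the 5S gene. YAL064W-B and TDA8 (I:12427-13362) had a peak in 1 Spp1-GFP and 5 Spp1-myc competition libraries and in none of the other 44 libraries.

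How often a replicate found the same convergent peak varied with time and strain. Over the 12 replicate pairs of the H3 strains 55.4% ± 16.3 of convergent peaks, against 59.2% ± 8.80 of other nuclear peaks, overlapped a peak of the partner list by at least 1 bp (SD, n = 12 pairs). At 0 h convergent peaks were found more often than other peaks in all 3 strains, with 79.1% against 76.4% in H3K4R, 78.8% against 62.5% in H3R2A and 73.3% against 64.1% in H3 wild type. After 0 h they were found less often in all 6 pairs of H3K4R and H3R2A, with 33.3 to 52.9% against 47.6 to 65.2%. The 3 later wild-type pairs had 69.2% against 64.8%, 50.0% against 50.5% and 58.8% against 46.1% at 2, 4 and 6 h. In intervals with a noncoding gene 100 of 150 convergent peaks were found again (66.7%), and in those without one 49 of 96 (51.0%).

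Flanking genes were set against gene lists of known function. Genes of the chromosome axis, cohesin and break machinery flank 10 convergent intervals, early meiotic genes 13, Set1C genes 5, histone genes 6 and translation factor genes 7, and 0 of these had a peak in any library. Ribosomal protein genes flank 70, of which 10 were occupied (14.3%), and 6 of the 10 hold a noncoding gene. Amino acid biosynthesis genes had 4 of 27 occupied, acetate and glyoxylate genes 2 of 10, heat shock genes 2 of 15, respiration genes 1 of 17, glycolysis genes 1 of 12 and middle and late sporulation genes 1 of 19. Over all convergent intervals 6.74% were occupied. Examples are BLI1 and FBA1 (fructose bisphosphate aldolase, 5 libraries), TIM13 and QCR9 (a subunit of the respiratory chain, 4 libraries) and LRG1 and ADY3 (a protein of the prospore membrane, 1 library).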

How the data were processed

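Peak lists of 62 ChIP-seq samples were used, 1 per sample. The authors deposited, for each peak, its position, its width and a fraction from 0.500 to 1 used here as its score; no normalization is stated. Reads had been aligned to sacCer3, with BWA and deepTools named, per the submitters' processing notes; the sources used here do not give the peak caller, its threshold or its control. Positions were 1-based. The 2787 peaks on a sequence named chrXVII, a name with no gene in the reference, were left out of nuclear counts. Gene positions (R64) came from RefSeq: 6002 protein-coding and 429 noncoding nuclear genes, with strand read from the systematic name. Peaks were assigned by midpoint.

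Shares were compared by exact permutation over libraries, densities by sign flips over series, and features by two-sided Fisher's exact tests, Benjamini-Hochberg adjusted (Python 3.11.15, SciPy 1.17.1), each tested on simulated data. Score percentiles were ranks within a list. Replicate numbers were not taken as pairs in the main tests. Between strains or tags at the same time, 15 pairs had correlations of deviations between -0.20 and 0.24, and 3 exceeded 0.1. Within strains, 6 of 18 pairs of times did. Weak pairing could therefore not be excluded, and Fisher's tests took all libraries as independent. Named intervals were the 12 occupied in most libraries, up to 5 per direction and comparison, up to 8 per Spp1-myc time class and up to 3 per gene list; others were named after their values were seen. Members, lists and tests were chosen with earlier results of these data known.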

Additional observations from a re-analysis of the deposited data

Results flagged for a closer look

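The change after 0 h in the convergent share differed between H3K4R and H3R2A cells by -0.78 percentage points (later minus 0 h, -0.91 in H3K4R and -0.13 in H3R2A; exact permutation of strain labels within time, p = 0.0154, 0.0463 adjusted over 3 pairs). It was listed because the same contrast differed between strains by a test of the difference itself. The H3K4R lists at 0 h held 15 and 16 peaks in intervals with a noncoding gene, against 11 and 12 in H3R2A. At 2, 4 and 6 h such peaks numbered 5, 4 and 3 in H3K4R replicate 1 and 2, 3 and 8 in replicate 2. In H3R2A they numbered 3, 3 and 2 in replicate 1 and 7, 8 and 10 in replicate 2. The convergent shares of H3R2A at these times were 0.792, 0.487 and 0.775% in replicate 1 and 1.18, 1.27 and 1.58% in replicate 2. Without intervals that hold a noncoding gene the difference between strains was -0.19 (exact permutation, adjusted p = 0.299). Adjusted p of the exact test ranged from 0.00926 to 0.204 when libraries or replicate series were left out, and the call was lost in 14 of these 20 fits. Groups of 2 libraries or fewer were too small for a test of outlying samples.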

How the results depend on the processing

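Limits first: the lists hold no read depth, no control track and no peak height in reads, so a place without a peak is one without a call, and the smallest competition lists (40 to 110 peaks for Spp1-myc) leave small shares undetectable. All values are differences in percentage points of nuclear peaks unless another unit is named, and the cause of each change was not tested. The later minus 0 h share was -1.0 among peaks in the upper 50% of scores and -1.08 with lists of equal length, both past the threshold. With any overlap of at least 1 bp counted, 6 h against 2 and 4 h turned to -0.069, and the change after 0 h in H3R2A against H3 wild type to 1.49. With intervals extended by 250 bp, the values turned to -0.97 for H3K4R against wild type, 1.19 for later against 0 h, -1.65 for Spp1-GFP against Spp1-myc and 1.14 for the change after 0 h in H3R2A against wild type. Without intervals that hold a noncoding gene they turned to -0.16 for H3K4R and -0.088 for H3R2A against wild type, 0.0018 for later against 0 h, -0.025 for 6 h and -0.44 for Spp1-GFP. Width and score percentile turned to 125 bp and 6.41 in the upper 50% and to 44.7 bp and 4.00 without noncoding intervals. Density against tandem intervals missed the threshold at -0.51 peaks per 100 kb in the upper 50% and -0.23 in sporulation medium only. Among features with a peak in at least 3 libraries, 12 passed between Spp1-GFP and Spp1-myc. Leaving out libraries or replicate series gave -0.14 to 0.23 for H3K4R and -0.056 to 0.54 for H3R2A against wild type, -0.50 to 0.10 for H3K4R against H3R2A, -0.49 to -0.26 for later against 0 h, -0.47 to -0.29 for its noncoding-gene share, -0.31 to 0.22 for the change after 0 h in H3R2A against wild type, and -1.27 to -0.85 peaks per 100 kb against tandem intervals. Features called were 0 to 12 for H3K4R against wild type (12 without H3 wild type replicate 1 at 0 h) and 120 to 334 for later against 0 h, with 3 to 7 convergent intervals among the last. Density against divergent intervals kept its call under every setting run, none of which compared densities at 0 h alone. The replicate block gave exact permutation p-values, adjusted over its 4 comparisons, of 0.766 for H3K4R and 0.250 for H3R2A against wild type, 0.609 for H3K4R against H3R2A and 0.667 for Spp1-GFP, and changed no call. Within strains the same-numbered libraries of 18 pairs of times had correlations of -0.068 to 0.21, and 6 exceeded 0.1. A replicate block within strain, added after seeing the data, gave exact p = 0.113 for later against 0 h, 0.316 for 6 h against 2 and 4 h and 0.00823 for the noncoding-gene share, adjusted over 6, and changed no call either. Whether the numbers pair samples cannot be told from these values.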
